A study of Homo sapiens with 28 samples.

Results

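The comparison described here is the difference between the H596 and H2009 lung cancer lines in their RNA response to compound B. For each gene, the log2(FPKM + 1) change with compound B in H2009 was subtracted from the change in H596; FPKM is the number of sequenced fragments per kilobase of transcript, scaled to the size of the library. A gene was included when its mean FPKM over the untreated libraries was at least 2 in both lines, so that a difference could not come from a gene that is not expressed in one of them. This left 9424 of the 13481 genes in the table of compounds, and all 9424 were among the 12781 genes that entered the test. The values that decide inclusion are untreated levels, not responses. Just inside the limit lay HFE, whose lower untreated mean was 2.0007 FPKM, with a difference of 0.44, and just outside it ZNRF1 at 1.99831 FPKM, with a difference of 0.00 to 2 decimals.

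Of the series' 28 samples, 8 enter the comparison. They are H596 cells given 100 nM compound B for 24 h, untreated H596 cells, H2009 cells given 100 nM compound B for 24 h, and untreated H2009 cells, with 2 libraries each. Both lines are established non-small-cell lung cancer lines, labelled adenocarcinoma and wild type in genotype. No vehicle is named for the untreated cells. Compound C, given at the same dose and for the same time with 2 libraries per line, serves as a background. Compounds B and C are known here only by these names, and the series' design text presents compound B as an inhibitor of RUVBL1. Whether the replicates came from separate cultures is not stated in the labels, and each p-value measures only the spread between these libraries. In bulk RNA, a lower level in every cell and fewer cells with the RNA cannot be told apart.

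RUVBL1 and RUVBL2 are AAA+ ATPases that form a joint ring. The ring is a part of the chromatin complexes INO80, SRCAP and TIP60, and with the PAQosome it acts as a chaperone in the assembly of small nucleolar ribonucleoproteins, RNA polymerases and the PIKK family of kinases. Genes of DNA damage and stress signalling, cell cycle arrest and RNA processing are therefore natural places to look for a response to loss of its activity. RUVBL1 itself had 93.0 and 117 FPKM with compound B and 119 and 176 FPKM untreated in H596, and 70.3 and 84.0 FPKM with compound B and 92.4 and 110.0 FPKM untreated in H2009. Its response differed between the lines by -0.08 (SE 0.41), and that of RUVBL2 by 0.20 (SE 0.41). Neither passed the test (limma adjusted p = 0.998 and 0.997), and the 95% intervals, -0.99 to 0.83 and -0.72 to 1.11, leave room for a sizeable difference in either direction.

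The lines differ before treatment. H596 carries the same label of adenocarcinoma as H2009, but the squamous markers TP63 and KRT5 averaged 82.9 and 1332 FPKM in untreated H596, against 0.183 and 0.496 FPKM in untreated H2009. NKX2-1, a lung adenocarcinoma marker, averaged 0.736 FPKM in untreated H596 and 83.6 FPKM in untreated H2009. KRT7, another marker of that list, was high in both, at 578 FPKM in untreated H596 and 1555 FPKM in untreated H2009. The summed level of the 8 lung adenocarcinoma genes in the table was 567 to 886 FPKM in untreated H596 and 1065 to 2378 FPKM in untreated H2009. The summed level of the 20 squamous genes in the table was 4608 to 7039 FPKM with compound B and 5833 to 7878 FPKM untreated in H596, and 242 to 336 FPKM with compound B and 196 to 304 FPKM untreated in H2009. Epithelial genes were high in both lines; EPCAM averaged 86.2 FPKM in untreated H596 and 472 FPKM in untreated H2009. What part these lineage differences have in the responses was not tested. Of 8 listed markers of endothelial cells and 11 of blood cells, 0 had values here, so their levels could not be assessed. Same-numbered libraries deviated together: replicate 1 minus replicate 2, taken gene by gene, correlated positively in all 6 pairs of the groups used (r 0.705 to 0.871). Each count is therefore given from an unpaired fit, which takes the libraries of a group as independent, and from a paired fit, in which the number enters as a block. Both fits give the same changes with different errors.

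More genes passed for compound B in H2009 than in H596, and the changes there were larger. Over the 9424 genes, the SD of the log2 change was 0.261 in H596 and 0.550 in H2009. Changes of at least 1 were found for 16 genes in H596 and 271 in H2009, and changes of -1 or lower for 10 genes in H596 and 393 in H2009. In the unpaired limma fit 0 genes passed in H596 (percent called 0; 352 at an unadjusted p under 0.05; smallest adjusted p = 0.105), and 875 passed in H2009 (9.28%; 367 higher, 3.89%, and 508 lower, 5.39%). In the paired fit 151 genes passed in H596 (1.6%; 69 higher, 0.732%, and 82 lower, 0.87%) and 3646 in H2009 (38.7%; 1515 higher, 16.1%, and 2131 lower, 22.6%). Leaving out any 1 of the 8 libraries lowered these counts, to 148 to 773 in H2009 in the unpaired fit, and to 1 to 82 in H596 and 2139 to 3527 in H2009 in the paired fit. The centre of the distribution was alike in both lines, with a median change of -0.06 in H596 and -0.07 in H2009, and the larger changes in H2009 ran in both directions. The compound C changes had an SD of 0.106 in H596 and 0.177 in H2009, well under those of compound B.

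The smaller response in H596 mostly ran the same way. The 367 genes called higher in H2009 had a median change of 0.26 in H596 and 1.07 in H2009, and 312 of them (85.0%) were above 0 in H596, where 39.7% of all genes were. The 508 genes called lower in H2009 had a median of -0.36 in H596 and -1.03 in H2009, and 477 (93.9%) were below 0 in H596, against 60.3% of all genes. The median ratio of the H596 change to the H2009 change was 0.236 for the higher genes and 0.344 for the lower ones. These genes were chosen by their H2009 values, which favours a larger change there, so the figures describe the set and are not a test. Chosen the other way round, the 69 genes called higher in H596 by the paired fit had a median of 0.77 in H596 and 1.09 in H2009, and 48 of them moved further in H2009. The 82 called lower in H596 had a median of -0.75 in H596 and -1.15 in H2009, and 64 moved further in H2009. Across all 9424 genes the changes in the lines had a Pearson r of 0.627 and a Spearman rho of 0.614; these are over genes, which are not independent, and the libraries of one line share their untreated baseline.

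**Figure D1:**
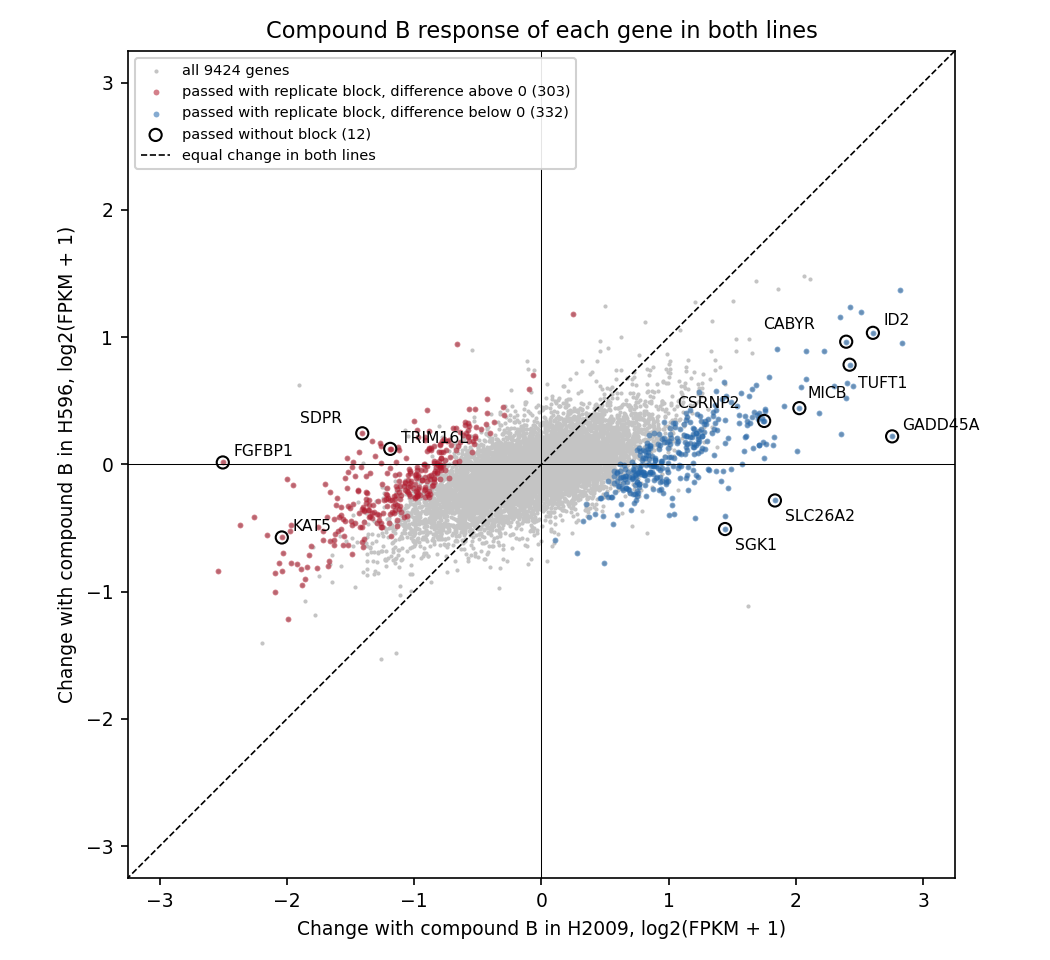
Change with compound B, as log2(FPKM + 1), in H596 (vertical axis) against H2009 (horizontal axis) for each of the 9424 genes (n = 2 libraries per group). Red and blue points are the 303 and 332 genes whose difference passed the paired fit above and below 0, rings are the 12 that passed the unpaired fit, and the dashed line marks equal changes; the cloud is wider along the H2009 axis. H3F3A, at -4.34 in H596 and 0.54 in H2009, lies outside the axes, and its difference passed neither fit.

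The difference between the lines was then tested gene by gene. In the unpaired limma fit 12 of the 9424 genes passed at an adjusted p under 0.05 (0.127%, against 0.454% of all 12781 genes tested), 4 with a higher value in H596 (0.0424%) and 8 with a lower one (0.0849%); 602 had an unadjusted p under 0.05. In the paired fit 635 passed (6.74%, against 8.24% of all genes tested), 303 higher in H596 (3.22%) and 332 lower (3.52%), and these include the 12. The 95% interval of a gene's difference had a median half-width of 0.84 in the unpaired and 0.48 in the paired fit. These intervals are not adjusted for the number of genes tested, so at a typical error a call needed a larger difference than that. The smallest difference among the 12 genes was 1.31 in size. Of the 9424 genes, 118 had a difference of at least 1 and 153 one of -1 or lower. With only the 9424 genes in the fit the unpaired count is 0, with only the 8 compound B and untreated libraries it is 1, and with any 1 of these 8 libraries left out it is 0 to 3; the paired count is then 149 to 385. In all of these settings the 12 genes keep their direction, and all 12 pass the paired fit of all libraries. The 12 were selected from these same libraries by difference relative to error, so neither is separate support.

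All 12 genes changed more in H2009 than in H596. Each of them passed for compound B in H2009 and none in H596 in the unpaired fit, and for each the 4 possible differences between a treated and an untreated library in H596 did not overlap the 4 in H2009. Of all 9424 genes, 19.3% have that property. In 10 of the 12 the untreated level was higher in H596 than in H2009, as it was in 53.3% of all genes.

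The largest difference among the 12 genes was that of GADD45A, a stress-induced gene of growth arrest and DNA repair. It had 76.6 and 64.3 FPKM with compound B and 53.5 and 67.5 FPKM untreated in H596, and 78.4 and 45.5 FPKM with compound B and 9.47 and 6.73 FPKM untreated in H2009. The treated H2009 libraries lay near the level of all 4 H596 libraries, among which the groups overlapped. The log2 change was 0.22 in H596 and 2.76 in H2009, a difference of -2.54 (SE 0.41, limma adjusted p = 0.0439).

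ID2 encodes an inhibitor of basic helix-loop-helix transcription factors that acts in differentiation and proliferation. Its level was 26.4 and 26.5 FPKM with compound B and 12.01 and 12.9 FPKM untreated in H596, and 34.7 and 31.9 FPKM with compound B and 4.56 and 4.70 FPKM untreated in H2009. The groups did not overlap in either line, and the change was 1.03 in H596 and 2.60 in H2009. The difference was -1.57 (SE 0.25, limma adjusted p = 0.0439), and ID2 also passed for H596 alone in the paired fit (adjusted p = 0.0078).

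SGK1, a kinase induced by serum and glucocorticoids, is the only one of the 12 with changes of at least 0.5 in opposite directions. It had 25.5 and 24.1 FPKM with compound B and 35.8 and 35.6 FPKM untreated in H596, and 14.2 and 11.7 FPKM with compound B and 3.42 and 4.91 FPKM untreated in H2009. The treated libraries lay below the untreated ones in H596 and above them in H2009. The change was -0.51 in H596 and 1.44 in H2009, and the difference -1.95 (SE 0.31, limma adjusted p = 0.0439). The H596 change alone did not pass in either fit (adjusted p = 0.851 unpaired and 0.169 paired).

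SLC26A2, a sulfate transporter of the cell membrane, had the smallest adjusted p. Its FPKM values were 2.61 and 3.20 with compound B and 3.60 and 3.89 untreated in H596, and 10.0 and 10.8 with compound B and 1.91 and 2.52 untreated in H2009. Treated H596 libraries lay below untreated ones and treated H2009 libraries well above theirs. The change was -0.28 in H596 and 1.83 in H2009, with a difference of -2.12 (SE 0.24, limma adjusted p = 0.0078).

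MICB is a stress-induced surface ligand of the receptor NKG2D, by which natural killer cells recognise damaged cells. MICB had 20.8 and 25.9 FPKM with compound B and 16.8 and 16.9 FPKM untreated in H596, and 59.6 and 52.6 FPKM with compound B and 13.0 and 12.9 FPKM untreated in H2009. Untreated levels were close in both lines, and both treated H2009 libraries stood above both treated H596 ones. The change was 0.44 in H596 and 2.03 in H2009, a difference of -1.59 (SE 0.25, limma adjusted p = 0.0438).

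The other 3 genes with a lower value in H596 were TUFT1, CABYR and CSRNP2. TUFT1, which encodes the enamel-matrix protein tuftelin, had 32.4 and 36.4 FPKM with compound B and 20.8 and 18.4 FPKM untreated in H596, and 86.4 and 82.3 FPKM with compound B and 17.1 and 13.0 FPKM untreated in H2009 (difference -1.64, SE 0.28, limma adjusted p = 0.0492). CABYR, a calcium-binding protein first described in sperm, had 4.93 and 5.84 FPKM with compound B and 2.25 and 2.27 FPKM untreated in H596, and 124 and 110.0 FPKM with compound B and 19.6 and 23.3 FPKM untreated in H2009 (difference -1.43, SE 0.24, limma adjusted p = 0.0484). CSRNP2, a nuclear protein of a family of transcriptional activators, had 3.17 and 3.65 FPKM with compound B and 2.37 and 2.58 FPKM untreated in H596, and 27.5 and 25.1 FPKM with compound B and 7.65 and 6.60 FPKM untreated in H2009 (difference -1.41, SE 0.23, limma adjusted p = 0.0439). Treated libraries lay above untreated ones in both lines for each of the 3. CABYR and CSRNP2 are expressed at under 3 FPKM in untreated H596, where the scale of log2(FPKM + 1) understates a fold change.

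Among the 4 genes with a higher value in H596 was KAT5, which encodes TIP60, the acetyltransferase of a complex that also holds RUVBL1 and RUVBL2. KAT5 had 15.1 and 14.8 FPKM with compound B and 21.5 and 24.1 FPKM untreated in H596, and 3.57 and 4.01 FPKM with compound B and 17.8 and 19.6 FPKM untreated in H2009. Treated libraries lay below untreated ones in both lines, and the treated H2009 level was the lowest of the 4 groups. The change was -0.58 in H596 and -2.04 in H2009, a difference of 1.47 (SE 0.23, limma adjusted p = 0.0439), and the H596 change passed in the paired fit (adjusted p = 0.035).

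FGFBP1 encodes a secreted carrier of fibroblast growth factors. It had 184 and 178 FPKM with compound B and 162 and 198 FPKM untreated in H596, and 0.709 and 0.762 FPKM with compound B and 9.88 and 7.90 FPKM untreated in H2009. The H596 groups overlapped at a high level, while both treated H2009 libraries were under 1 FPKM. The change was 0.01 in H596 and -2.50 in H2009, and the difference 2.52 (SE 0.31, limma adjusted p = 0.0111).

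SDPR, the caveola protein now named CAVIN2, had 15.1 and 18.7 FPKM with compound B and 14.1 and 14.0 FPKM untreated in H596, and 1.64 and 1.65 FPKM with compound B and 6.81 and 5.32 FPKM untreated in H2009. TRIM16L had 9.90 and 9.19 FPKM with compound B and 8.88 and 8.50 FPKM untreated in H596, and 1.44 and 1.64 FPKM with compound B and 5.11 and 4.47 FPKM untreated in H2009. For both genes the treated H596 libraries lay slightly above the untreated ones and the treated H2009 libraries well below theirs. The differences were 1.65 for SDPR (SE 0.28, limma adjusted p = 0.0484) and 1.31 for TRIM16L (SE 0.23, limma adjusted p = 0.0492). TRIM16L is a close copy of TRIM16 and its reads may be shared with it, so its value is uncertain.

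**Figure D2:**
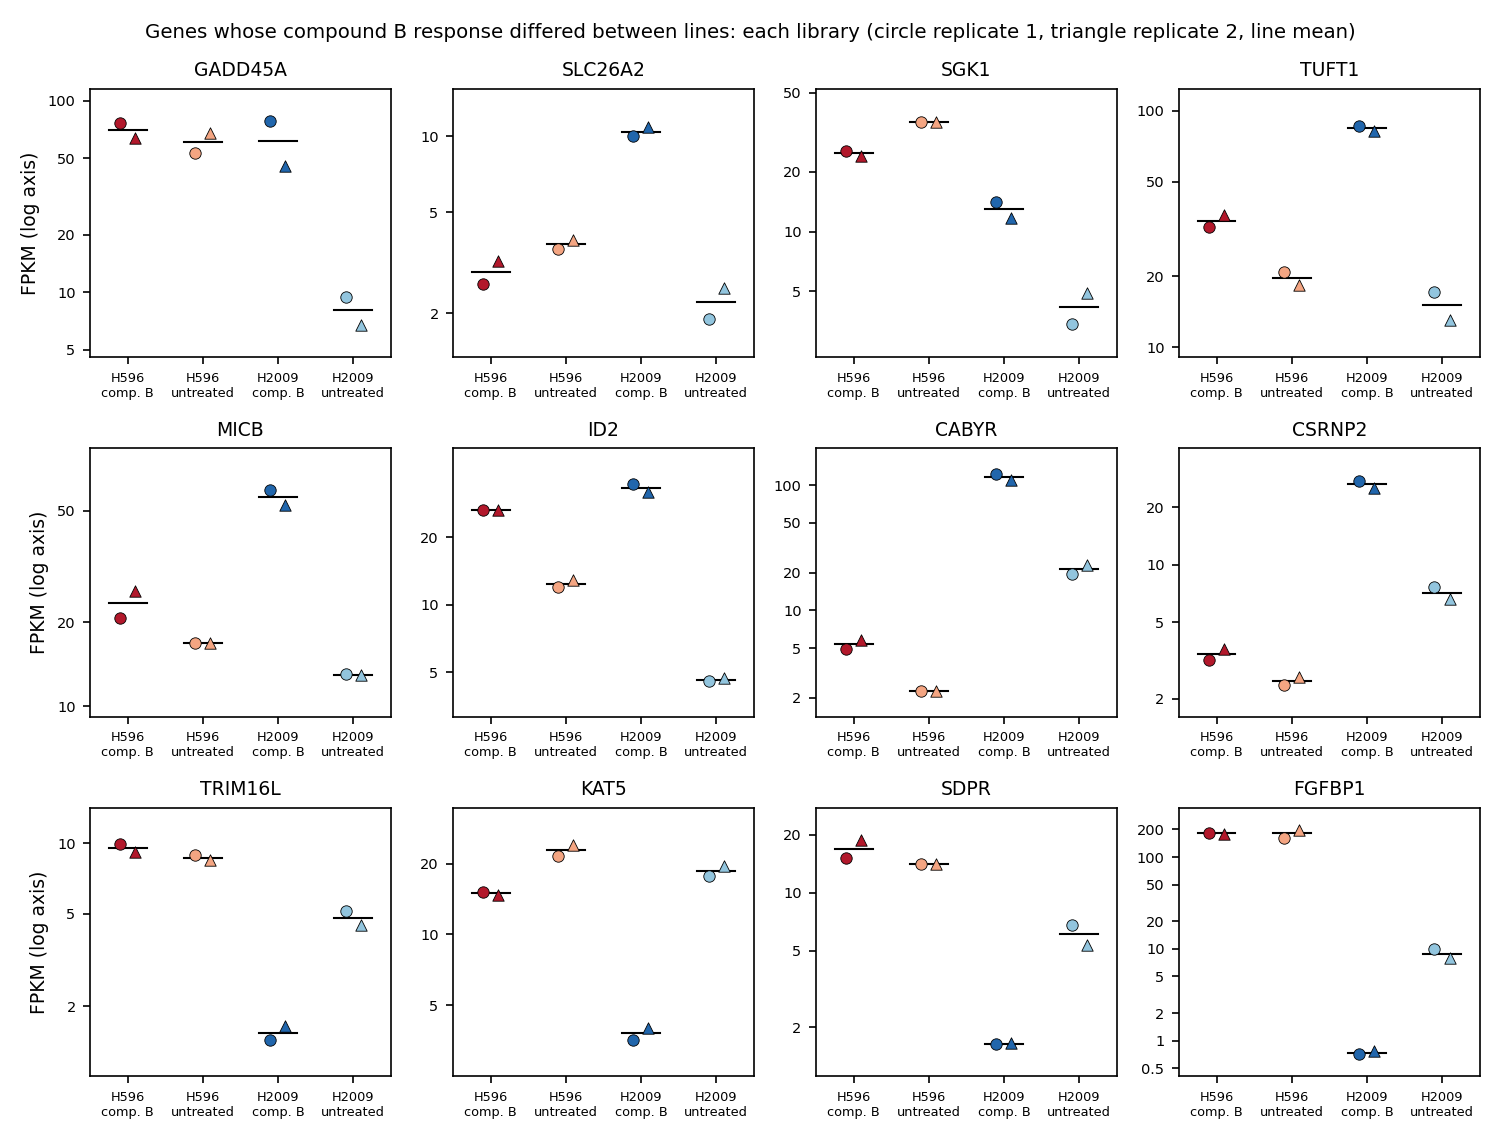
FPKM of the 12 genes in each library, on log axes, with a panel per gene and the mean of 2 libraries as a line. In every panel the step between compound B and untreated cells is larger in H2009 (blue) than in H596 (red); GADD45A and FGFBP1 overlap between treated and untreated H596.

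The promoters of 4 of these genes are shown, SLC26A2 and ID2 as genes with a lower value in H596 and KAT5 and FGFBP1 as genes with a higher one, chosen after their values were seen. The sequences are from RefSeq on GRCh38.p14, from 250 bases before to 50 bases after the start of the gene, and read 5′ to 3′ on the gene's strand. SLC26A2 lies at chr5:149960508-149960807 (plus strand), ID2 at chr2:8681806-8682105 (plus strand), KAT5 at chr11:65712002-65712301 (plus strand) and FGFBP1 at chr4:15938691-15938990 (minus strand). Capitals mark matches, on either strand, to the CCAAT box (CCAAT, which reads ATTGG on the other strand), the E-box CACGTG, the cyclic AMP response element TGACGTCA, the AP-1 site TGANTCA and the TATA box TATAAA.
SLC26A2: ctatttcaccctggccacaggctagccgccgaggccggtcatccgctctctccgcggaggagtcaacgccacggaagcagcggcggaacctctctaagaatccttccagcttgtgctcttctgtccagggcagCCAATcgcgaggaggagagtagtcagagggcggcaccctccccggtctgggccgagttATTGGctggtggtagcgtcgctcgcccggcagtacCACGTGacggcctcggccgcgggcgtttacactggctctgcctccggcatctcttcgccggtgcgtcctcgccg
ID2: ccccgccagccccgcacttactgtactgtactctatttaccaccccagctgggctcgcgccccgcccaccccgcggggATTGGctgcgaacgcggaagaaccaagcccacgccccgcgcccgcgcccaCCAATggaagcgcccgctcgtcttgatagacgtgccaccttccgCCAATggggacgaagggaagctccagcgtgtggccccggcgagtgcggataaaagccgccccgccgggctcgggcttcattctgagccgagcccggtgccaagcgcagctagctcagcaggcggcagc
KAT5: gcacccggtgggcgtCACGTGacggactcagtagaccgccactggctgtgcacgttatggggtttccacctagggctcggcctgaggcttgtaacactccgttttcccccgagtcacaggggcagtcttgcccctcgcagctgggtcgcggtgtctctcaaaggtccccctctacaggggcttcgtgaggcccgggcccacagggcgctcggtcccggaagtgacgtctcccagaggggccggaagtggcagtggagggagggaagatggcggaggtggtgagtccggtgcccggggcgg
FGFBP1: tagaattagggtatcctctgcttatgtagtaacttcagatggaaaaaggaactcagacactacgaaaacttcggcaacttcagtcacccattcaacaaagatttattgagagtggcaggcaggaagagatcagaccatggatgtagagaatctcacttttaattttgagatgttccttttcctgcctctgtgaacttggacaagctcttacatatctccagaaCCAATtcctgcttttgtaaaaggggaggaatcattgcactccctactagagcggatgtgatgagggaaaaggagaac
CCAAT was found in 5 of the 7 promoters that could be matched among the 8 genes with a lower value in H596, and in 38.3% of the 7872 promoters matched among all 9424 genes. With so few promoters this is a description only. Among the genes of the paired fit, CCAAT was in 114 of 272 promoters (41.9%) of those lower in H596 and in 96 of 254 (37.8%) of those higher in H596, close to the share over all genes. The AP-1 site was in 20 of 272 (7.35%) and 15 of 254 (5.91%), against 4.22% of all. TATAAA was in 21 of 272 (7.72%) and 16 of 254 (6.3%), against 4.71% of all, and the E-box in 20 of 272 (7.35%) and 33 of 254 (13.0%), against 11.0% of all. The cyclic AMP response element was in 8 of 272 (2.94%) and 11 of 254 (4.33%), against 3.61% of all. A match is no more than these letters in this window.

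Among the 635 genes of the paired fit, 623 changed more in H2009 and 12 more in H596. In 216 of the 303 with a higher value in H596, and in 185 of the 332 with a lower one, the changes had the same sign and the larger size in H2009. Nearly all of the others had opposite signs with under 0.5 in H596. SGK1 and SNRPA1 alone had changes of at least 0.5 in opposite directions. None of the genes first named from here on passed the difference in the unpaired fit, and the adjusted p-values given for them are those of the paired limma fit unless another is named. Each SE given beside them is still that of the unpaired fit, not of the paired one.

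SNRPA1, a protein of the U2 small nuclear ribonucleoprotein of the spliceosome, had 239 and 341 FPKM with compound B and 108 and 202 FPKM untreated in H596, and 120.2 and 136 FPKM with compound B and 166 and 250.5 FPKM untreated in H2009. The treated libraries lay above the untreated in H596 and below them in H2009. The difference was 1.61 (SE 0.56, limma adjusted p = 0.352 unpaired and 0.00383 paired), with a change of 0.95 in H596 and -0.67 in H2009.

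TUBB3, the neuronal class of beta-tubulin, was among the 12 genes with the larger change in H596. It had 17.0 and 22.8 FPKM with compound B and 7.41 and 8.89 FPKM untreated in H596, and 217 and 197 FPKM with compound B and 193 and 156 FPKM untreated in H2009. Its level in H2009 was many times that in H596 in all libraries, and the H596 libraries with compound B lay clearly above the untreated. The change was 1.18 in H596 and 0.25 in H2009, a difference of 0.93 (SE 0.31, paired limma adjusted p = 0.0474). LOC100288842 had changes of 0.70 in H596 and -0.07 in H2009 (difference 0.77, paired limma adjusted p = 0.041), and EGR1, an immediate early transcription factor, had -0.78 in H596 and 0.49 in H2009 (difference -1.27, paired limma adjusted p = 0.00991). EGR1 had 15.2 and 3.63 FPKM with compound B and 23.9 and 7.83 FPKM untreated in H596, and 11.2 and 4.29 FPKM with compound B and 7.65 and 2.76 FPKM untreated in H2009. Replicate 1 lay above replicate 2 in each group, and the unpaired adjusted p was 0.929.

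A few genes of cell cycle arrest and of the p53 pathway differed between the lines. CDKN1A, the inhibitor of cyclin-dependent kinases known as p21, had 46.3 and 36.2 FPKM with compound B and 24.9 and 17.2 FPKM untreated in H596, and 41.3 and 25.5 FPKM with compound B and 5.54 and 2.37 FPKM untreated in H2009. As with GADD45A, the treated levels of the lines were close and the untreated ones were not. The change was 0.95 in H596 and 2.83 in H2009 (difference -1.88, SE 0.54, paired limma adjusted p = 0.000933), and the H596 change passed the paired fit as well (adjusted p = 0.0133). CDKN2B, an inhibitor of CDK4 and CDK6, changed by 1.16 in H596 and 2.34 in H2009 (difference -1.19, paired limma adjusted p = 0.004). The cyclin D1 gene CCND1, their counterpart, changed by -0.32 in H596 and 1.03 in H2009 (difference -1.35, paired limma adjusted p = 0.0094).

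Of 9 genes on the list of CDK inhibitors and GADD45 genes, 3 had a lower difference in the paired fit (GADD45A, CDKN1A and CDKN2B) and 0 a higher one. Of all genes 3.52% were lower and 3.22% higher. The list includes GADD45GIP1 (difference 0.18), which is neither a CDK inhibitor nor a member of the GADD45 family. The list's median difference was 0.13 and ranged from -0.30 to 0.29 with 1 library left out. It was below 0 without replicate 1 of H596 with compound B (-0.18), replicate 2 of H2009 with compound B (-0.30) or replicate 1 of untreated H2009 (-0.07). Without GADD45GIP1 the median lies midway between the differences of CDKN2D (-0.51) and CDKN2C (0.13), so its sign rests on that gene. Of 19 p53 targets, 3 were lower and 1 higher, and the median difference was -0.33 (-0.40 to -0.13 with 1 library left out; nearest to 0 without replicate 2 of H596 with compound B, at -0.13, replicate 1 of untreated H596, at -0.20, or replicate 2 of untreated H2009, at -0.17). The lower ones were CDKN1A, the death receptor TNFRSF10B (-0.08 in H596 and 1.14 in H2009) and the kinase PLK2 (-0.25 in H596 and 0.75 in H2009). The higher one was MDM2, the ubiquitin ligase of p53, at 0.25 in H596 and -0.59 in H2009 (difference 0.84). Members of the p53 list thus passed in both directions.

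Of 21 AP-1 and immediate early genes, 5 were lower in the paired fit (3.52% of all genes) and 1 higher (3.22%), with a median change of 0.13 in H596 and 0.49 in H2009. With 1 library left out these medians were 0.06 to 0.21 in H596 and 0.19 to 0.74 in H2009, lowest without replicate 1 with compound B of the line in question. ATF3, a stress-induced repressor and activator of transcription, had 26.2 and 27.0 FPKM with compound B and 10.6 and 8.85 FPKM untreated in H596, and 33.2 and 26.1 FPKM with compound B and 3.82 and 2.86 FPKM untreated in H2009. It increased in both lines, by 1.37 in H596 (paired limma adjusted p = 0.0021) and 2.82 in H2009, and the difference was -1.45 (SE 0.31, paired limma adjusted p = 0.0029). MAFF, KLF4 and KLF10, further transcription factors of this list, had differences of -1.68, -1.13 and -1.13, and EGR1 was the fifth. JUND went the other way, with 0.14 in H596 and -1.13 in H2009 (difference 1.26, paired limma adjusted p = 0.013). HBEGF, a ligand of the epidermal growth factor receptor, changed by 0.61 in H596 and 2.45 in H2009 (difference -1.83, SE 0.52).

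The 9 replication-dependent histone genes measured in both lines had the largest list medians, with 0.89 in H596 and 1.44 in H2009. They are the part of 62 listed genes, 47 of them with values, that reached the limit of 2 FPKM. They may therefore not stand for the class. Of the 9 differences 0 were above 0, where 4832 of all 9424 were, and 4 passed the paired fit as lower, as did 3.52% of all genes. HIST1H2BJ had 67.6 and 107 FPKM with compound B and 65.0 and 96.7 FPKM untreated in H596, and 18.4 and 16.0 FPKM with compound B and 4.31 and 2.82 FPKM untreated in H2009. The H596 groups overlapped and the H2009 groups did not (difference -1.91, SE 0.51, paired limma adjusted p = 0.0144). HIST1H2AC and HIST1H2BK had differences of -1.85 and -1.56, and HIST1H2BD, at 1.20 in H596 and 2.51 in H2009, one of -1.31. HIST1H2BC had nearly the same change in both lines, 1.06 in H596 and 1.09 in H2009. Histone genes have near-identical copies that can share reads, so single values are uncertain.

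Over 24 genes of cholesterol synthesis the median change was -0.25 in H596 and 0.34 in H2009. The H2009 median was -0.02 without replicate 1 with compound B and -0.04 without replicate 2 of the untreated libraries, and the H596 median was -0.26 to -0.07 with 1 library left out, so the opposite signs of the medians rest on those H2009 libraries. With all libraries, 3 of the 24 differences were above 0. In the paired fit 4 passed as lower (3.52% of all genes did), among them HMGCS1, STARD4 and SC5D, and 0 as higher (3.22%). HMGCS1, a synthase of the early part of the pathway, had 57.3 and 49.6 FPKM with compound B and 77.7 and 63.7 FPKM untreated in H596, and 164 and 106 FPKM with compound B and 69.3 and 58.3 FPKM untreated in H2009. The treated libraries lay below the untreated in H596 and above them in H2009, and the difference was -1.44 (SE 0.40, paired limma adjusted p = 0.0029). TM7SF2, a sterol reductase, was one of the 3 genes with a difference above 0, at 0.97 in H596 and 0.46 in H2009.

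Of 11 targets of NF-kappa B, 3 were lower by the paired fit (3.52% of all genes) and none higher (0; 3.22%), with a median of -0.18 in H596 and 0.36 in H2009. With 1 library left out the medians were -0.32 to 0.00 in H596 and 0.06 to 0.61 in H2009, nearest to 0 without replicate 2 with compound B in H596 and without replicate 2 of the untreated libraries in H2009. The 3 were TNFAIP3, a feedback inhibitor of the pathway (-0.10 in H596 and 1.23 in H2009), the subunit NFKB2 (-0.23 in H596 and 0.96 in H2009) and the mitochondrial dismutase SOD2 (-0.20 in H596 and 0.93 in H2009). Of 22 genes of endoplasmic reticulum chaperones and the unfolded protein response, 1 passed as lower, a share near the 3.52% of all genes, namely the co-chaperone DNAJB9 (0.17 in H596 and 1.07 in H2009), and 0 passed as higher; 3 differences were above 0. The median of that list was -0.04 in H596, where the sign turns under another scaling of the libraries and with some libraries left out (-0.13 to 0.06), and 0.35 in H2009 (0.16 without replicate 1 with compound B and 0.19 without replicate 2 untreated). HSPA5, the main chaperone of that compartment, was at -0.18 in H596 and -0.30 in H2009.

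**Figure D3:**
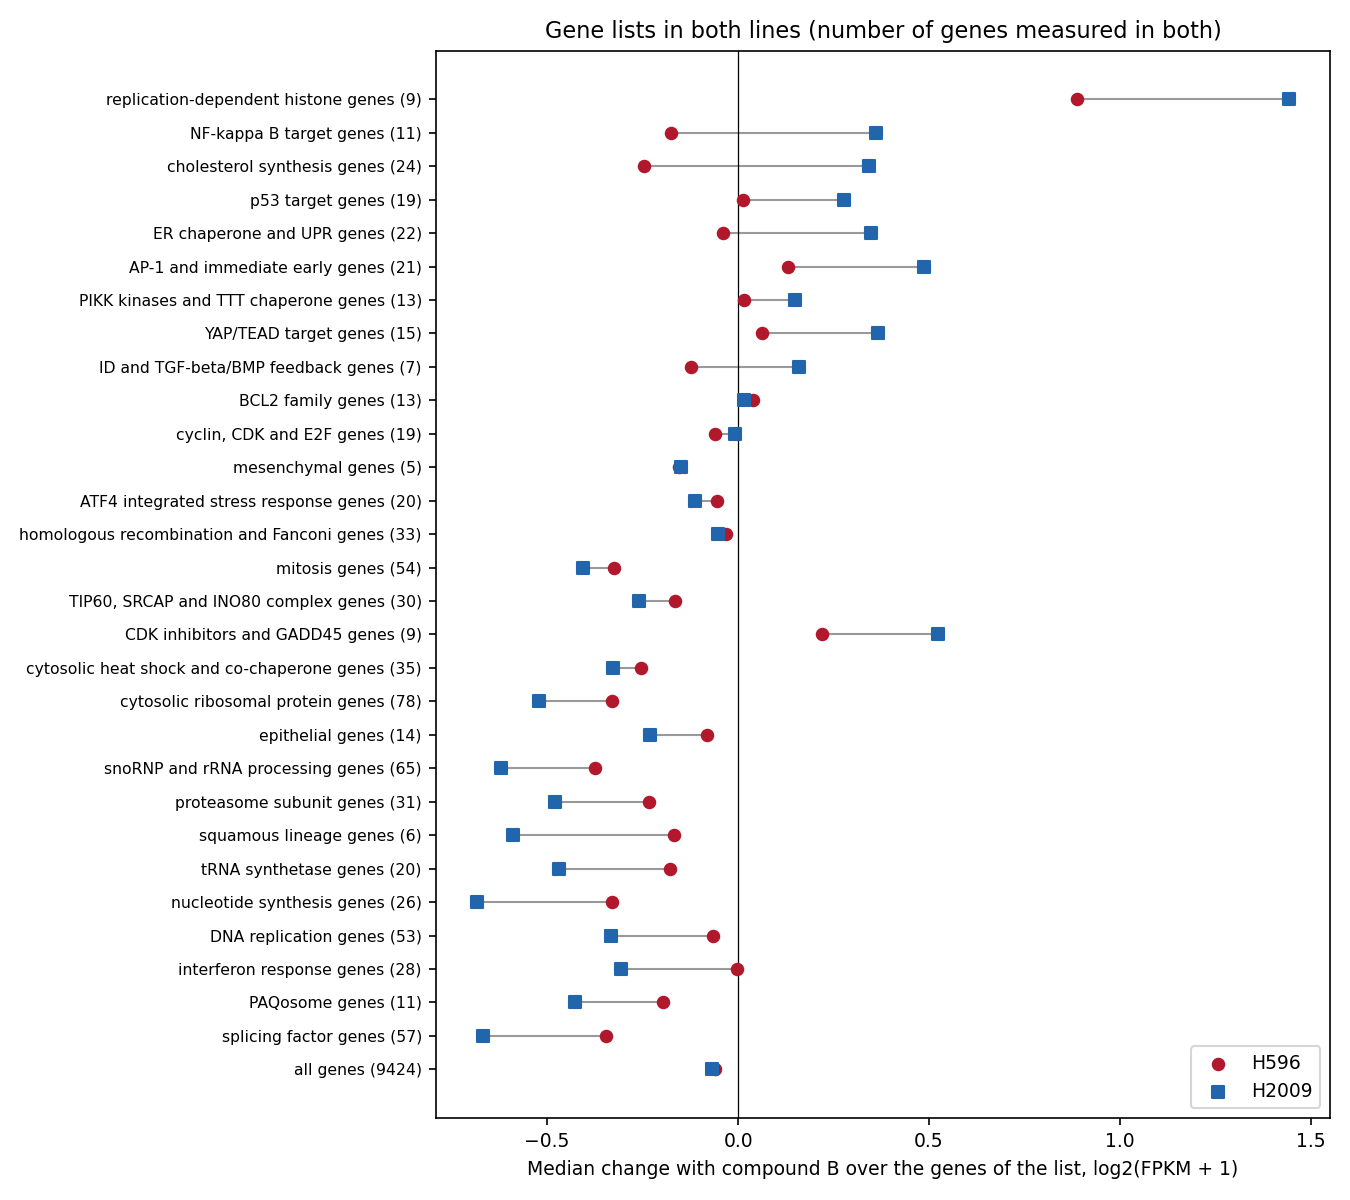
Median change with compound B over the genes of each list with at least 5 genes in H596 (circles) and H2009 (squares), in log2(FPKM + 1), ordered by the median difference, with the number of genes in parentheses. Histone genes lie furthest to the right, at 0.89 in H596 and 1.44 in H2009, and splicing, nucleotide synthesis and snoRNP genes lie furthest to the left in H2009.

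Of 57 splicing factor genes, 17 fell with compound B in H2009 in the unpaired fit (5.39% of all genes did). In H596 0 genes passed in that fit. In the paired fit 38 fell in H2009 (22.6% of all genes), and in H596 5 fell (0.87%) and 1 rose (0.732%). For the difference, 9 passed as higher in H596 in the paired fit and 0 as lower, where 3.22% of all genes passed as higher; 51 of the 57 differences were above 0, and the median change was -0.35 in H596 (-0.22 without replicate 2 of the untreated libraries) and -0.67 in H2009. HNRNPD, an RNA-binding protein of heterogeneous nuclear ribonucleoproteins, had 184 and 203 FPKM with compound B and 242 and 334 FPKM untreated in H596, and 77.4 and 96.2 FPKM with compound B and 319 and 473 FPKM untreated in H2009. The groups did not overlap in either line, and the step was larger in H2009 (difference 1.60, SE 0.39, paired limma adjusted p = 0.00244). HNRNPA1, which has many near-identical copies, changed by -0.86 in H596 and -2.10 in H2009 (difference 1.24), and the splicing regulator SRSF1 by -0.42 in H596 and -1.35 in H2009 (difference 0.94, paired limma adjusted p = 0.016). The other 6 were SNRPA1, HNRNPH3, HNRNPL, HNRNPH1, SNRPA and SF3B3.

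Of 65 genes for processing of ribosomal RNA and for small nucleolar ribonucleoproteins, 4 had a higher difference in the paired fit (UTP18, MPHOSPH10, EMG1 and UTP6) and 0 as lower, where 3.22% of all genes passed as higher and 3.52% as lower. The median was -0.38 in H596 (-0.58 and -0.15 without replicate 1 and replicate 2 of the untreated libraries) and -0.62 in H2009, and 53 differences were above 0. UTP18, a component of the small-subunit processome, changed by -0.64 in H596 and -1.81 in H2009 (difference 1.17). For the host gene SNHG4 of small nucleolar RNAs, which is in no list, the values were 2.09 and 1.09 FPKM with compound B and 2.77 and 2.02 FPKM untreated in H596, and 1.73 and 1.34 FPKM with compound B and 12.8 and 9.59 FPKM untreated in H2009. Its level was similar in all treated libraries and high only in untreated H2009 (difference 1.85, SE 0.36, paired limma adjusted p = 0.000325). Of 26 genes of nucleotide synthesis, PFAS (-0.78 in H596 and -1.92 in H2009) and MTHFD1 (-0.49 in H596 and -1.13 in H2009) passed as higher and 0 as lower. PFAS acts in purine synthesis and MTHFD1 supplies its folate one-carbon units. The list's median was -0.33 in H596 and -0.68 in H2009 (-0.43 without replicate 1 of the untreated libraries).

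In the complexes that contain RUVBL1 and RUVBL2 the lines differed in a few genes. Of 30 genes of TIP60, SRCAP and INO80, 4 passed as higher in the paired fit (3.22% of all genes) and 0 as lower (3.52%): KAT5, MCRS1, ACTR6 and ACTR5. MCRS1, an INO80 subunit, had 19.5 and 14.8 FPKM with compound B and 21.4 and 21.2 FPKM untreated in H596, and 20.7 and 18.2 FPKM with compound B and 57.9 and 46.5 FPKM untreated in H2009. Treated libraries lay below untreated ones in both lines, and the treated levels of the lines were close (difference 1.07, SE 0.28, paired limma adjusted p = 0.0094). ACTR5, another INO80 subunit, changed by -0.41 in H596 and -1.06 in H2009 (difference 0.65, paired limma adjusted p = 0.042). ING3, a TIP60 subunit, changed by -0.88 in H596 and -1.75 in H2009, and its difference of 0.87 missed the threshold (paired limma adjusted p = 0.057). The scaffold genes EP400, SRCAP and INO80 had differences of -0.39, -0.17 and 0.04, of which none passed. Of the 11 PAQosome genes 0 passed either way in either fit (0 at an unadjusted p under 0.05), although 9 differences were above 0 and the median was -0.20 in H596 and -0.43 in H2009; the H596 median was -0.44 and 0.13 without replicate 1 and replicate 2 of the untreated libraries and -0.09 without replicate 1 with compound B. Of 13 genes of PIKK kinases and their TTT chaperone 0 passed either way in either fit, with 1 lower at an unadjusted p under 0.05.

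The 28 interferon response genes had a median of 0.00 in H596, where another scaling turns its sign and leaving out 1 library gives -0.07 to 0.14, and -0.31 in H2009 (-0.15 without replicate 2 of the untreated libraries). For the difference, 4 passed as higher in the paired fit (IFI44, IFIT3, IFIH1 and DDX60; 3.22% of all genes did) and 1 as lower (IRF1; 3.52%), and 19 differences were above 0. IFI44 had 36.2 and 44.2 FPKM with compound B and 48.8 and 64.5 FPKM untreated in H596, and 10.8 and 14.7 FPKM with compound B and 61.5 and 78.3 FPKM untreated in H2009. Treated lay below untreated in both lines, by much more in H2009 (difference 1.89, SE 0.41, limma adjusted p = 0.102 unpaired and 0.000981 paired). IFIT3, which hinders translation of viral RNA, had 19.0 and 24.4 FPKM with compound B and 21.0 and 27.9 FPKM untreated in H596, and 5.40 and 8.60 FPKM with compound B and 23.4 and 36.9 FPKM untreated in H2009. Its groups overlapped in H596 and not in H2009 (difference 1.79, SE 0.46, paired limma adjusted p = 0.000534). IRF1, a transcription factor of the same response, ran against these, with 0.57 in H596 and 1.24 in H2009 (difference -0.67).

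By the paired fit 3.22% of all genes passed as higher and 3.52% as lower, and few genes of DNA replication and mitosis did. Of 53 DNA replication genes, TIPIN, of the replication fork protection complex, passed as higher (difference 0.78), and GINS4, of the replicative helicase, passed as lower with 0.38 in H596 and 1.25 in H2009. Their median was -0.07 in H596, where another scaling or leaving out 1 H596 library turns the sign, and -0.33 in H2009. Of 54 mitosis genes, CDC25C, the phosphatase that starts mitosis, passed as lower (difference -0.78) and 0 as higher, and the medians were -0.32 in H596 (-0.20 and -0.50 without replicate 1 and replicate 2 with compound B, -0.19 without replicate 2 untreated) and -0.41 in H2009. The recombinase paralogue RAD51C passed as higher, with 0.22 in H596 and -0.92 in H2009, as the only one of 33 genes of homologous recombination and the Fanconi pathway. Of 31 proteasome genes and 78 genes of cytosolic ribosomal proteins 0 passed either way in either fit (1 and 0 at an unadjusted p under 0.05). The ribosomal protein genes' median difference was 0.17. It was -0.07 under quantile normalization, and among the H596 libraries 0.08 and 0.27 without replicate 1 and replicate 2 with compound B and 0.09 without replicate 1 untreated.

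Only 6 of 23 listed squamous lineage genes, 20 of them with values, reached 2 FPKM in untreated cells of both lines. TP63 and KRT5 did not, so the 6 may not stand for the lineage. By the paired fit, 2 of these 6 and 1 of 14 epithelial genes were higher, where 3.22% of all genes were. In either list 0 passed as lower. Squamous changes in H2009 ran both ways, as that fit called 2 of the 6 up with compound B and 3 down. The squamous median difference was 0.27, and -0.07 to 0.62 with 1 library left out. KRT13, a keratin of squamous epithelia, had 2694 and 1501 FPKM with compound B and 2834 and 1682 FPKM untreated in H596, and 3.26 and 3.86 FPKM with compound B and 15.8 and 18.6 FPKM untreated in H2009. Replicate 1 exceeded replicate 2 in both H596 groups, which overlapped (difference 1.88, SE 0.54, paired limma adjusted p = 0.0291). SOX2, a transcription factor of the squamous lineage, changed by -0.41 in H596 and -1.69 in H2009 (difference 1.28, paired limma adjusted p = 0.0069). ELF3, an epithelial transcription factor, had 95.5 and 79.9 FPKM with compound B and 86.3 and 70.2 FPKM untreated in H596, and 4.75 and 4.53 FPKM with compound B and 14.0 and 11.3 FPKM untreated in H2009. Its groups overlapped in H596 only (difference 1.43, SE 0.29, paired limma adjusted p = 0.0015).

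The same contrast for compound C gave 1 gene of 9424 in the unpaired limma fit (0.0106%) and 1 in the paired fit. That gene was EEF1A1, which every cell uses and which was listed at 0 in both H2009 libraries with compound C, against 4687 and 6431 FPKM in untreated H2009. A listed 0 there can be a failed estimate, as the gene has many near-identical copies. The compound C and compound B contrasts share the untreated libraries, so their values are only set side by side. For GADD45A the compound C changes were -0.32 in H596 and 0.27 in H2009, for ID2 0.06 in H596 and 0.09 in H2009, for KAT5 0.01 in H596 and -0.11 in H2009, and for FGFBP1 -0.29 in H596 and -0.03 in H2009. For each of these genes the compound C change in H2009 was small next to that of compound B.

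Knockdown of RUVBL1 by siRNA gives a readout that did not enter the comparison. It was measured against a non-targeting siRNA in separate tables, for 3 days in H596 and 2.5 days in H2009, so the values are given with no test. The siRNA changed RUVBL1 by -5.13 in H596 and -4.98 in H2009. All 12 genes changed more in H2009 than in H596 with the siRNA, as did 74.9% of the 9368 genes with values in both lines. For 11 of the 12 the siRNA change in H2009 had the sign of the compound B change there, which held for 68.3% of the 9368; the exception was SLC26A2. ID2 changed by 0.58 in H596 and 1.61 in H2009 with the siRNA, MICB by 0.02 in H596 and 1.38 in H2009, and GADD45A by 0.22 in H596 and 1.07 in H2009. FGFBP1 changed by -0.21 in H596 and -1.23 in H2009, and SDPR by -0.41 in H596 and -1.32 in H2009. KAT5 moved little, by 0.01 in H596 and -0.33 in H2009, and SLC26A2 by -0.06 in H596 and -0.15 in H2009.

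Of the genes lower in H596 than in H2009 by the paired fit, 254 of 329 with siRNA values (77.2%) also had a lower siRNA change in H596 than in H2009. Of those higher in H596, 272 of 303 (89.8%) had a higher one. Over all 9368 genes the difference had the same sign in 64.0%. The median siRNA change was 0.05 in H596 and 0.33 in H2009 for the lower set and -0.07 in H596 and -0.53 in H2009 for the higher set, against -0.04 in H596 and -0.09 in H2009 over all genes. IFI44 was at 0.35 in H596 and -1.88 in H2009 with the siRNA, and CDKN1A at 0.17 in H596 and 1.36 in H2009. TUBB3 did not keep its pattern: with the siRNA it was at -0.73 in H596 and -0.78 in H2009. The NF-kappa B targets named above did not keep theirs, with the higher siRNA change in H596. TNFAIP3 was at 0.68 in H596 and 0.19 in H2009, NFKB2 at 0.29 and 0.12, and SOD2 at 0.04 and -0.73. Of the cholesterol synthesis genes, HMGCS1 (-0.03 in H596 and 0.01 in H2009) and STARD4 (0.02 and 0.06) moved little. SC5D, at 0.18 in H596 and 0.89 in H2009, kept its direction.

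**Figure D4:**
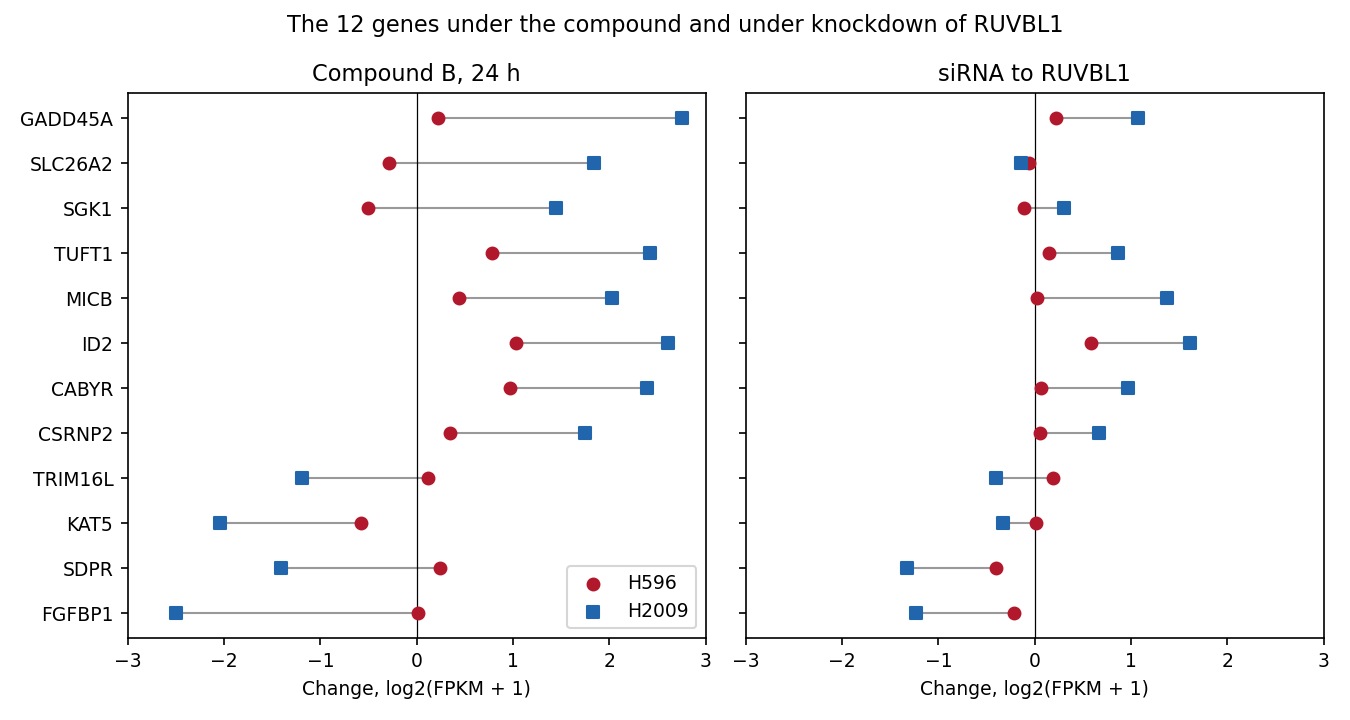
Change in log2(FPKM + 1) of the 12 genes in H596 (circles) and H2009 (squares) with 100 nM compound B for 24 h (left) and with siRNA to RUVBL1 for 3 days in H596 and 2.5 days in H2009 (right), each point a difference of means of 2 libraries. The H2009 points lie further from 0 than the H596 points for all 12 genes in both panels, with SLC26A2 near 0 under the siRNA.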

How the data were processed

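The compound table holds FPKM per gene as the authors deposited it for 12 libraries, made from stranded mRNA libraries per the labels' protocols. Per the submitters' processing notes, the tools were Cufflinks 2.2.1, TopHat2 2.0.12 and CASAVA 1.8.2, and the build hg19; no strand setting for them is stated there. Depth is unknown, so no counting error can be given.

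limma 3.58.1 in R 4.3.3 was fitted to log2(FPKM + 1) of the 12 libraries with 6 group means and variances moderated along their trend with the mean. P-values were adjusted by Benjamini-Hochberg over all 12781 genes whose mean in at least 1 line reached 1 FPKM, and called at 0.05. The contrast was (H596 compound B minus untreated) minus (H2009 compound B minus untreated), and calls were counted over the 9424 genes with a mean of at least 2 FPKM in untreated cells of both lines. The fit was run on simulated data with differences of known size, and the check asked only whether their median size was recovered. It does not vouch for the calls.

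Libraries share replicate numbers in their titles, whose meaning no label gives. The replicate 1 minus replicate 2 difference correlated in all 15 pairs of the 6 groups (r 0.564 to 0.883). That the numbers pair the libraries was judged with counts from both fits in view, so the unpaired fit is the result and the paired fit stands beside it. Each SE is that of the unpaired fit.

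The genes, 33 lists and tests were chosen with earlier results of these data known. The naming rule takes RUVBL1 and RUVBL2, up to 10 called genes at each end whose groups do not overlap, up to 5 of opposite sign and 5 larger in H596, and up to 3 called members per list. Its use on the paired fit, and further list members that are named, were chosen after values were seen. Lists are described by counts and medians, without a test. Values of some list members are not reported here.

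The siRNA tables, also FPKM as deposited, may be normalized separately and were used only for changes within each table; 19 entries of the H2009 table whose names had become dates were left out. The cDNA libraries were not used here. Alternatives were other scalings, pseudocounts, filters and controls, the replicate block, and leaving out each library.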

Additional observations from a re-analysis of the deposited data

Results flagged for a closer look

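The test of the difference between the lines set apart the responses of 12 genes, each given as the H596 change minus the H2009 change on the log2(FPKM + 1) scale. Lower in H596 were GADD45A (-2.54), SLC26A2 (-2.12), SGK1 (-1.95), TUFT1 (-1.64), MICB (-1.59), ID2 (-1.57), CABYR (-1.43) and CSRNP2 (-1.41). Higher in H596 were TRIM16L (1.31), KAT5 (1.47), SDPR (1.65) and FGFBP1 (2.52). All 12 passed the unpaired limma fit with adjusted p-values of 0.0078 to 0.0492. Each difference had the same sign in replicate 1 and in replicate 2 taken alone. That follows from the lack of overlap between the lines given above for the 12, so it adds no support. In SLC26A2, for example, the difference was -2.27 in replicate 1 and -1.97 in replicate 2. FGFBP1, with 2.85 in replicate 1 and 2.18 in replicate 2, SGK1, with -2.26 and -1.65, and CABYR, with -1.73 and -1.13, had the widest gaps of the 12. No explanation of these differences was tested.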

How the results depend on the processing

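Against 12 genes called for the difference, the paired fit with a replicate block called 635, the block within each line 1059, the fit of 8 libraries without compound C 1, the fit of the 9424 genes alone 0, quantile normalization and 1 scaling factor per library 22 each, no mean-variance trend 7, compound C as control 6, a limit of 5 FPKM 6, and an adjusted p of 0.1 35; leaving out 1 library gave 0 to 3. On top of the block, chosen after seeing the data, quantile normalization gave 813, compound C as control 737, and leaving out 1 library 149 to 385. In H596 (0 called) the block gave 151, the block within line 412, quantile normalization 2, 1 scaling factor 3, and on top of the block 149 with quantile normalization, 93 with compound C as control and 1 to 82 without 1 library. In H2009 (875 called) the values were 3646, 4126, 1403 at an adjusted p of 0.1, 148 to 773 without 1 library, and on top of the block 3677, 3759 and 2139 to 3527. The 12 differences, selected from these same libraries, kept their direction in every setting. Pseudocounts of 0.5 and 2 kept 8 and 10 of the 12 calls. The median H596 change of genes called higher in H2009 was 0.175 to 0.373 over the paired fits without 1 library. The cause of these shifts was not tested. The RUVBL1 difference, -0.08, turned to 0.000661 with compound C as control, with or without the block, and ranged from -0.36 to 0.20 without 1 library; the RUVBL2 difference, 0.20, ranged from -0.12 to 0.51. Depth is unknown, and 2 libraries per group limit the precision.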
